A study of Mus musculus with 6 samples.

Results

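The members described here are the probe sets of a whole-transcript mouse array whose platform annotation lists at least 2 gene symbols, so that their signal cannot be assigned to 1 gene. Of 35556 deposited probe sets, 1621 list several symbols, 21789 list 1 and 12146 list none. The test took in a probe set whose value exceeded the median of its array on 3 or more of the 6 arrays. This kept 838 members and left 783 untested. The 838 tested members carry 375 distinct lists (spelled as annotated, order included) and 877 distinct symbols. Of the 1621, 8 repeat 1 symbol under several gene identifiers, and 1 of these 8 was tested.

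Gene expression was measured in N2A cells, a mouse line grown from a neuroblastoma, a tumour of the sympathetic nervous lineage. The control group was 3 cultures transfected with a non-targeting vector, and the Pax6 knockdown group was 3 cultures transfected with a short hairpin RNA vector against Pax6, which encodes a transcription factor of the developing brain and eye. Both groups came from the same line and were transfected transiently with 1.5 µg of vector, and each RNA was hybridised to its own array. The study's methods place RNA extraction up to 3 days after transfection, and its Pax6 protein blot was made at 3 days. The cells were not selected for the vector, so each value averages transfected and untransfected cells, and fewer expressing cells and less RNA per cell cannot be told apart. The labels number the cultures as replicates, and the study's methods call them biological replicates. Values are log2 summaries made by RMA, a method that corrects background, normalizes the arrays to a common distribution and summarises the probes of a set, and a fold change is the knockdown mean minus the control mean on that scale.

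Short array probes can match several places in a genome. Processed pseudogenes are copies of mature messenger RNAs put back into the genome, and abundant transcripts such as those of ribosomal proteins have left many of them. Tandem duplication produces families of near-identical neighbours, as among interferons, class I histocompatibility genes and zinc finger genes, while small nucleolar RNAs (snoRNAs), which guide chemical modification of other RNAs, lie within the introns of host genes. A read-through transcript joins neighbouring genes, so that a probe set in either gene lists both the gene and the joined locus. A value from any of these probe sets belongs to the list and not to 1 of its genes.

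The sequences upstream of some genes listed together are printed here to show the most alike pairs of neighbouring copies, and where 2 listed genes share a start. Each is the 250 bases before the annotated transcription start in RefSeq GRCm38.p6, written 5′ to 3′ on the strand of the gene. Capitals mark matches, on either strand, to a motif of GAAA, any 2 bases and GAAA again, the core of the element that interferon-regulated genes often carry. The array's own probe sequences were not used here.
Apol9a (chr15:77411081-77411330, strand -): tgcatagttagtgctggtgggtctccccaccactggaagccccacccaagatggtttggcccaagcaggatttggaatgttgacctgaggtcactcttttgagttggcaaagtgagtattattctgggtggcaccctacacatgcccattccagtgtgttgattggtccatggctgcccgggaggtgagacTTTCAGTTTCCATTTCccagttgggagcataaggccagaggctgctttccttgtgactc
Apol9b (chr15:77728822-77729071, strand +): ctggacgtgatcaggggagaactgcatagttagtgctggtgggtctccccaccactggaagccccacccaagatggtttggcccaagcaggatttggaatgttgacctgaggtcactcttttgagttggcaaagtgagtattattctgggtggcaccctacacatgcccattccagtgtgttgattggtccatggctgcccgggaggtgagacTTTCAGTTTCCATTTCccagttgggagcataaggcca
Ifnz (chr4:88781881-88782130, strand +): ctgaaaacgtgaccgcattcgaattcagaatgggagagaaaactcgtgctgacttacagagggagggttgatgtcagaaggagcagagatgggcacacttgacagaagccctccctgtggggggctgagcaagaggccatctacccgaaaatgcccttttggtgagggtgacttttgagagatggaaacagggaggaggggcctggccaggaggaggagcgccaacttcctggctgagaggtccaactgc
Gm13288 (chr4:88805281-88805530, strand +): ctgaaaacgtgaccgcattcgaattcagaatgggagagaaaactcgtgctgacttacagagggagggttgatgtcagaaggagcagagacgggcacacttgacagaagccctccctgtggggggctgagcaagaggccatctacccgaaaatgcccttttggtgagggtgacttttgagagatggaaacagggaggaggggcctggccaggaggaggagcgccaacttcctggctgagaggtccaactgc
Cpne1 and Rbm12 (chr2:156111966-156112215, strand -): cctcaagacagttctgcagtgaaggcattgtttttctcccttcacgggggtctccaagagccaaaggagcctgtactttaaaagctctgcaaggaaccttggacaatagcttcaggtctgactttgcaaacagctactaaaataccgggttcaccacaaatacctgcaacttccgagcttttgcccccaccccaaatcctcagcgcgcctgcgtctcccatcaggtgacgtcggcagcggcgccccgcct
The Apol9a and Apol9b windows aligned over 228 bases, of which 228 were identical, and each held 2 overlapping matches on the reverse strand. The Ifnz and Gm13288 windows were identical at 249 of 250 positions and held no match. Other genes listed together were less alike. Gm13275 matched Ifnz at 159 of 160 aligned bases, but Gm13290 aligned with Ifnz over 41 bases only (28 identical), Gm13272 over 12 (11 identical) and Gm13271 over 9 (9 identical), and Rnaset2a with Rnaset2b over 26 (22 identical). A match was found in 821 of 27025 promoter windows of this length (3.04%). RefSeq gives Cpne1 and Rbm12 the same start and therefore the same window. H2-K1 and H2-D1, which share a probe set that fell, were identical at 161 of 177 aligned bases and held no match. A match is a description of these letters only.

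Of 16 microRNA symbols in the tested lists, 15 matched a RefSeq entry. The mature miR-692 is shown because its precursors Mir692-2 and Mir692-3 are both named beside Ftl1, the ferritin light chain, and both give the same sequence. Its seed (bases 2 to 8) is in capitals.
miR-692 (chr4:125504805-125504825, strand + and chr13:74407121-74407141, strand +): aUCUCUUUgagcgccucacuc

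Pax6 itself, measured by a probe set of its own, read 8.79, 8.82 and 8.81 under control and 8.48, 8.30 and 8.50 under knockdown. All knockdown arrays were below all control arrays, by 0.38 on the log2 scale (95% CI of the log2 fold change -0.54 to -0.22, limma adjusted p = 0.0420). Without control replicate 1, 2 or 3 the adjusted p was 0.131, 0.190 and 0.148, and the call was also lost without knockdown replicate 3 (adjusted p = 0.115). The markers fixed for N2A cells that could be read (Phox2a, Hand2, Gata3, Dbh, Isl1, Tubb3 and Stmn2) were above the array median on all 6 arrays, and those of leukocytes (Ptprc), astrocytes (Gfap), hepatocytes (Alb) and keratinocytes (Krt5) on 0. Pecam1 of endothelium (7.80 to 8.18) and Col1a1 of fibroblasts (8.13 to 8.54) were also above it on 6, with array medians of 7.49 to 7.59.

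Knockdown of Pax6 was accompanied by lower signal from a small set of multi-gene probe sets, of which those of Ass1 (arginine synthesis), Cpt1b (mitochondrial fatty acid import), Apol9a and Apol9b (an apolipoprotein L pair) and an interferon zeta cluster had the lowest adjusted p, and those of Top2a and Hibadh the largest log2 fold changes. Higher signal came from 1 probe set of Cpne1 and Rbm12, which rose most, 1 of Pabpc4 and 4 of the ribosomal protein genes Rps26 and Rpl29. At a false discovery rate (FDR) of 10%, 38 of 838 members passed, of which 32 were lower and 6 higher in the knockdown. That is 4.53% of the members against 6.19% of all 13384 tested probe sets with a symbol. In the lower direction it is 3.82% against 3.61%, and in the higher direction 0.716% against 2.59%. The 38 carry 19 lists, 15 lower and 4 higher, and 32 distinct rows of values. With the replicate number as a block, 96 members passed (33 higher and 63 lower), or 11.5% against 15.6% of all tested probe sets, and all 38 were among them. With array centring 32 passed (1 higher, 31 lower), or 3.82% against 5.01%, and with a second quantile normalization 63 (18 higher, 45 lower), or 7.52% against 10.8%. With the 12146 probe sets without a symbol also eligible for the test, 21 members passed (0 higher, 21 lower), or 2.51% against 2.37%.

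The members had higher levels than single-gene probe sets and smaller changes. Their median level was 11.8 against 9.82, and 497 of the 838 lay above the 75th percentile of tested levels. The median size of the log2 fold change was 0.053 among members and 0.084 among single-gene probe sets, and the median log2 fold change was 0.0054 and 0.017. Among the probe sets that passed, the median size was 0.39 for members and 0.33 for single-gene probe sets. Control and knockdown arrays did not overlap for 240 members (28.6%, against 25.1% of all tested), 126 of them higher (15% against 13.6%) and 114 lower (13.6% against 11.4%).

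The most stable fall was in the pair of probe sets listing Gm5424 and Ass1. Ass1 encodes argininosuccinate synthase, which joins citrulline and aspartate on the way to arginine, and RefSeq classes Gm5424, on another chromosome, as a transcribed pseudogene. The first probe set read 9.50, 9.62 and 9.48 in control and 8.82, 8.60 and 8.67 in knockdown arrays. The second read 9.40, 9.49 and 9.38 in control and 8.71, 8.46 and 8.58 in knockdown arrays. In both, every knockdown array was below every control array, with log2 fold changes of -0.84 (SE 0.076) and -0.84 (SE 0.077), and the limma adjusted p was 0.00518 for each. On the linear scale the first fell by 44.0% and the second fell by 44.3%. Both passed whichever single array was left out, at adjusted p values of at most 0.0550.

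Apol9a and Apol9b are neighbouring, interferon-inducible members of the apolipoprotein L family, and both of their shared probe sets fell. The first read 9.33, 9.17 and 9.12 in control and 8.62, 8.55 and 8.73 in knockdown arrays, and the second 9.47, 9.26 and 9.23 in control and 8.62, 8.50 and 8.80 in knockdown arrays. The groups did not overlap in either. The log2 fold changes were -0.57 (SE 0.078, limma adjusted p = 0.0225) and -0.68 (SE 0.10, adjusted p = 0.0241). Without control replicate 2 the adjusted p was 0.114 and 0.123, and both passed without any other single array.

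A cluster of interferon zeta genes gave the longest run of calls. Ifnz (interferon zeta, or limitin, a type I interferon) is listed with Gm13288, Gm13275, Gm13272, Gm13290 and Gm13271 on 15 tested probe sets. All 15 passed as lower, but on 2 of them 0 of the knockdown arrays lay above the array median, so these entered the test through the control arrays alone, which favours a fall. Without such probe sets, 13 of this list and 36 of 835 members passed (4.31%, 30 of them lower). They are not 15 independent measurements, since they hold 9 distinct rows of values and 6 of them are identical. The probe set with the largest change read 7.94, 7.81 and 7.90 in control and 7.53, 7.40 and 7.40 in knockdown arrays. Its groups did not overlap, and all of its values lay close to the array median. Over the 15, the log2 fold change ran from -0.44 to -0.31 and the limma adjusted p from 0.0225 to 0.0557. Other probe sets of the same gene had values nearer to 0. The 3 that list Ifnz with Gm13274 had log2 fold changes of -0.030, -0.017 and -0.0061, and the probe set that lists Ifnz alone had -0.080 (SE 0.16, adjusted p = 0.871). None of the 15 passed without control replicate 2, control replicate 3 or knockdown replicate 3, and 9 did without control replicate 1. The adjusted p then reached 0.194.

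The largest change in size was in the probe sets that list Top2a and Hibadh, genes of unrelated function on different chromosomes. Top2a encodes the DNA topoisomerase that untangles chromosomes in dividing cells, and Hibadh a mitochondrial enzyme of valine breakdown. The first probe set read 10.35, 9.63 and 9.78 in control and 9.03, 8.59 and 9.10 in knockdown arrays, which is -1.02 (SE 0.21, limma adjusted p = 0.0526), and it alone among the 38 reached a 2-fold change. The second read 10.34, 9.62 and 9.77 in control and 9.23, 8.68 and 9.18 in knockdown arrays, with -0.87 (SE 0.21, adjusted p = 0.0843). Groups did not overlap in either, although control replicate 1 stood above the other control arrays. The single-gene probe sets had 0.033 (SE 0.062, adjusted p = 0.858) for Top2a and 0.13 (SE 0.15, adjusted p = 0.738) for Hibadh. With any 1 of control replicates 1, 2 and 3 or knockdown replicates 1 and 3 left out, at least 1 of the pair no longer passed, and the adjusted p reached 0.201.

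For 2 read-through loci, a probe set passed on 1 side of the join and not on the other, and for Gm45927 it did on neither side. Gm44502 is the locus in which Chkb, a choline kinase, runs into Cpt1b, the muscle form of carnitine palmitoyltransferase. The Gm44502 and Cpt1b probe set read 8.29, 8.23 and 8.25 in control and 7.85, 7.75 and 7.70 in knockdown arrays. These groups did not overlap, and the log2 fold change was -0.49 (SE 0.060, limma adjusted p = 0.0173), lost without control replicate 2 (adjusted p = 0.108). The Gm44502 and Chkb probe set read 9.08, 8.93 and 8.87 in control and 8.91, 8.50 and 8.84 in knockdown arrays. Its groups overlapped, at -0.21 (SE 0.12, adjusted p = 0.396).

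Gm44504 joins Slc10a3, a solute carrier family member, to Ubl4a, a ubiquitin-like protein that helps insert tail-anchored proteins into membranes. With Slc10a3 the values were 9.29, 9.20 and 9.20 in control and 8.94, 8.61 and 8.79 in knockdown arrays. All knockdown arrays were lower, at -0.45 (SE 0.089, limma adjusted p = 0.0505). With Ubl4a they were 11.02, 10.77 and 10.77 in control and 10.99, 10.69 and 10.75 in knockdown arrays, which overlapped, at -0.042 (SE 0.10, adjusted p = 0.899). The Slc10a3 call was lost without any 1 control array or without knockdown replicate 3 (adjusted p up to 0.194). Gm45927 is likewise listed with Clk2, a kinase of splicing factors, at -0.22 (SE 0.059, adjusted p = 0.103, and 0.0726 with the replicate block), and with Scamp3, a secretory carrier membrane protein, at -0.0093 (adjusted p = 0.961). The differences between the sides were not tested.

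The Rpl13a gene, a ribosomal protein gene whose introns hold several snoRNAs, gave a similar contrast. With Snord34 the values were 10.45, 10.18 and 10.12 in control and 9.84, 9.81 and 9.91 in knockdown arrays. The groups did not overlap, and the log2 fold change was -0.40 (SE 0.092, limma adjusted p = 0.0743). With Snord32a, a snoRNA of the same host, they were 11.63, 11.71 and 11.64 in control and 11.40, 11.68 and 11.54 in knockdown arrays, which overlapped, at -0.12 (SE 0.080, adjusted p = 0.514). This difference was not tested either.

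The other falls were smaller than 0.4 on the log2 scale. M6pr, the receptor that carries enzymes to the lysosome, is listed with its pseudogene M6pr-ps on a probe set that read 12.26, 12.13 and 11.96 in control and 11.81, 11.69 and 11.76 in knockdown arrays, at -0.36 (SE 0.085, limma adjusted p = 0.0768). Rnaset2a and Rnaset2b, copies of a lysosomal ribonuclease, share a probe set at -0.21 (adjusted p = 0.0995) and another at -0.21 that missed the threshold (adjusted p = 0.1004, and 0.0691 with the replicate block). Loxl2, which crosslinks collagen, is listed with Gm21451 on a probe set at -0.34 (adjusted p = 0.0445). For all of these probe sets that passed, every knockdown array lay below every control array.

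H2-K1 and H2-D1 encode class I histocompatibility molecules, which present peptides to T cells. Their probe set with LOC547349 read 12.42, 12.41 and 12.32 in control and 12.19, 12.09 and 12.09 in knockdown arrays. The groups did not overlap, at -0.26 (SE 0.059, limma adjusted p = 0.0743). A second probe set with the same genes in another order had -0.26 (SE 0.074, adjusted p = 0.113, and 0.0371 with the replicate block). All 6 tested H2 members had negative log2 fold changes, from -0.26 to -0.12, with a median of -0.19 against 0.015 for all tested probe sets. Of the 6, 1 passed (16.7%, against 6.19% of all tested), and 3 did with the block, beside 15.6% of all tested.

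The remaining falls were spread over unrelated lists. Gxylt1, a xylosyltransferase that acts on Notch, is listed with the pseudogene Gm11821 at -0.39 (limma adjusted p = 0.0549), and its own probe set read -0.18 (adjusted p = 0.367). Tmem189, an enzyme of plasmalogen synthesis, is listed with Gm6194 at -0.29 (adjusted p = 0.0887). It was the only 1 of the 8 genes behind these calls whose single-gene probe set also passed, at -0.32 (adjusted p = 0.0504). The overlapping genes 4933434E20Rik and 1700094D03Rik gave 1 call at -0.32 (adjusted p = 0.0587) and a second probe set at -0.04 (adjusted p = 0.92). Among zinc finger genes, Zfp808, Gm5141 and Zfp934 share a probe set at -0.27 (adjusted p = 0.0610). It was the only 1 of 27 zinc finger members to pass (3.7%, against 6.19% of all tested probe sets). With the replicate block 4 did, beside 15.6% of all tested. Of the 27, 21 were negative, with a median of -0.093.

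Rises past the threshold were few. The largest was in the probe set of Cpne1, a calcium-dependent membrane-binding protein, and Rbm12, an RNA-binding protein, which share their annotated start (sequence above). It read 9.75, 9.76 and 9.78 in control and 10.29, 9.95 and 10.24 in knockdown arrays. The groups did not overlap, at 0.40 (SE 0.093, limma adjusted p = 0.0754), and knockdown replicate 2 was nearest to control. Pabpc4, a poly(A)-binding protein, is listed with the pseudogene Gm12620 on 4 tested probe sets, of which 1 passed at 0.22 (adjusted p = 0.0982) and the others had 0.22 (adjusted p = 0.111, and 0.0838 with the replicate block), 0.16 and 0.16. The calls for Loxl2, H2-K1 and H2-D1, Gxylt1, 4933434E20Rik and Zfp808 were lost when any 1 control array, or the third knockdown array, was left out (adjusted p up to 0.273). Those for Cpne1 and Rbm12, Pabpc4, Tmem189 and Snord34 were lost without any of these 4 arrays and also without knockdown replicate 1 (adjusted p up to 0.296). Those for M6pr and for Rnaset2a and Rnaset2b were lost without any 1 of the 6 arrays (adjusted p up to 0.318).

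Ribosomal protein genes made up the largest family, with 231 probe sets in 47 lists, all of them tested. Of these 4 passed as higher and 0 as lower, 1.73% against 6.19% of all tested probe sets. Log2 fold changes were positive for 196 and negative for 35, with a median of 0.030 against 0.015 for all tested. Knockdown arrays lay above all control arrays for 76 (32.9%, against 13.6% of all tested) and below for 3. These 76 were not spread evenly, since Rpl29 was named on 35 of them, Rps2 on 15, Rpl30 on 10 and Rpl15 on 8, and copies of 1 gene share sequence and are not replicates.

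Rps26, of the small ribosomal subunit, is listed with the transcribed pseudogene Gm6654 on 3 probe sets, and all 3 rose. The first read 13.51, 13.57 and 13.57 in control and 13.72, 13.83 and 13.82 in knockdown arrays, at 0.24 (SE 0.057, limma adjusted p = 0.0823). All knockdown arrays were above all control arrays, and the other 2 probe sets also had 0.24, with adjusted p up to 0.0871. Rpl29, of the large subunit, is named on 35 tested probe sets, with log2 fold changes from 0.10 to 0.22. The 1 that passed, listed with Gm13213, read 12.98 to 13.01 in control and 13.17 to 13.23 in knockdown arrays, at 0.22 (SE 0.052, adjusted p = 0.0826). The single-gene Rpl29 probe set had 0.15 (adjusted p = 0.220). Without knockdown replicate 1, 1 of the 3 Rps26 calls held, and with any other single array left out 0 of the Rps26 and Rpl29 calls did (adjusted p up to 0.266).

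By contrast, Rpl21 with 32 probe sets ranged from 0.0042 to 0.032, Rpl31 with 17 from -0.30 to 0.028 and Rpl12 with 7 from -0.014 to 0.0053, and none of these passed (with the replicate block 1, Rpl31 with Clpb at -0.30, did at an adjusted p of 0.0339). At an unadjusted p under 0.05, 44 ribosomal members were higher (19% against 9.26% of all tested) and 1 lower (0.433% against 9.16%). The number of ribosomal members that passed moved with the filter, the scaling and the variance model. It was 0 when low values were not filtered or were filtered at the 25th percentile, with all deposited rows and with array centring. Of all tested probe sets, 1.1%, 2.31%, 2.37% and 5.01% passed in these settings. Of the 231, 7 passed with a second quantile normalization (10.8% of all tested) and 6 with the replicate block (15.6%). With an intensity trend 46 did (8.74%), with array weights 56 (37.7%) and with the 75th percentile filter 18 (15.9%).

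Small RNAs and their hosts were the second-largest named family, with 75 of 120 probe sets tested, in 27 lists. Of these 0 passed as higher and 1, Snord34 with Rpl13a, as lower, 1.33% against 6.19%, and at an unadjusted p under 0.05, 4 were higher (5.33% against 9.26% of all tested) and 28 lower (37.3% against 9.16%). For 28 (37.3%, against 11.4% of all tested) the knockdown arrays lay below all control arrays. Most of both shares came from 1 list, that of Snord116l2 described below. It holds 24 of the probe sets lower at that unadjusted p. At least 18 of the 28 without overlap are 1 row of values repeated in that list. With the replicate block 14 of the 75 passed, beside 15.6% of all tested probe sets. Within this family, 35 probe sets in 11 lists name a snoRNA, and 33 of the 35 were negative, with a median of -0.38. Taking 1 median per list, 9 of 11 were negative and the median was -0.17. Of 46 single-gene snoRNA probe sets, 44 were negative, with a median of -0.21. Of the 46, 3 passed, all lower, where 6.19% of all tested probe sets passed and 3.61% passed as lower.

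Of these 35 probe sets, 24 belong to 1 list. Snord116l2, Snord116l1 and Gm26504, snoRNAs of the imprinted Prader-Willi region, share these 24, which hold 7 distinct rows, 18 of them identical. The identical ones read 11.30, 11.24 and 11.17 in control and 10.72, 10.69 and 11.16 in knockdown arrays. Knockdown replicates 1 and 2 lay well below control and knockdown replicate 3 lay just below its lowest array. Log2 fold changes ran from -0.38 to -0.32, and 0 of the 24 passed (lowest limma adjusted p = 0.122), while 24 had an unadjusted p under 0.05. With the replicate block 3 of the 24 passed, beside 15.6% of all tested probe sets. Without knockdown replicate 3, 21 of the 24 passed. Over all 24, log2 fold changes then ran from -0.53 to -0.41 and limma adjusted p from 0.0551 to 0.127. In that setting 27 members passed (3.22% against 0.792% of all tested), of which 22 were not among the 38, namely these 21 and AF357355 with Rian. AF357355, a snoRNA within the imprinted RNA Rian on another chromosome, had a similar pattern. It read 7.96, 7.90 and 7.86 in control and 7.40, 7.37 and 7.80 in knockdown arrays, at -0.38 (SE 0.12, adjusted p = 0.138, and 0.0793 with the block).

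For 3 snoRNA hosts the shared probe sets were negative and the host's own were positive, which was not so for Eif5 and Rpl12. Snord14d and Snord14c are listed with Hspa8, a constitutive heat shock protein, on 2 probe sets. The first read 11.71, 11.55 and 11.59 in control and 11.45, 11.18 and 11.04 in knockdown arrays, at -0.39 (SE 0.11, limma adjusted p = 0.110), without overlap, and with the replicate block both passed (adjusted p = 0.0296 and 0.0339). The 3 single-gene Hspa8 probe sets had 0.0072, 0.030 and 0.044. Snord68 with Rpl13 had -0.41 (SE 0.13, adjusted p = 0.159, and 0.0542 with the block), while 9 single-gene Rpl13 probe sets had 0.081 to 0.14. Snord14a with Rps13 had -0.17 (SE 0.15, adjusted p = 0.655), while 3 single-gene Rps13 probe sets had 0.074 to 0.084. Snora28 with Eif5 had -0.30 (adjusted p = 0.354, and 0.0967 with the block), and the single-gene Eif5 probe set was also negative, at -0.055. Rpl12 with Snora65 went the other way, at 0.041 beside -0.056 for the single-gene Rpl12 probe set. None of these passed without the block, and the differences between them were not tested.

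The list of Mir692-3, Mir692-2 and Ftl1, whose mature microRNA is shown above, went the other way. On its brightest probe set, control arrays read 13.56, 13.59 and 13.61 and knockdown arrays 13.68, 13.79 and 13.81, without overlap. Its 4 probe sets had log2 fold changes of 0.17 to 0.22 (lowest limma adjusted p = 0.151, and 0.0536 to 0.0881 with the replicate block), beside 0.20 (adjusted p = 0.185) for the single-gene Ftl1 probe set. The mature sequence is common to both precursors and was not measured apart from Ftl1 by these probe sets.

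The sign of the median of every family was the same under the second quantile normalization. Array centring moved every log2 fold change by 0.0044, less than the smallest family median (0.011 in size), so it could turn none of these signs.

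Other families held few or no calls by limma. Histone genes, packed into clusters of near-identical copies, had 33 tested probe sets with levels up to 14.2, of which 0 passed, 30 were negative and the median was -0.024. Translation factors, chaperones and glycolytic enzymes with many copies had 54, of which 0 passed, with a median of 0.016. For tubulins and actins, 0 of 11 passed, for oxidative phosphorylation genes 0 of 7, for keratins 0 of 15 and for immune gene clusters 0 of 18, with medians of 0.013, -0.012, 0.011 and -0.044. Among these families, 1 histone probe set, lower, had an unadjusted p under 0.05 (3.03% against 9.16% of all tested), and 0 of the others did. Genes whose symbols mark ubiquitin, SUMO or the proteasome had a median of 0.11 over 12 probe sets, and 0 passed, the lowest limma adjusted p being 0.116 for Ube2f with Gm5434 (0.23). With the replicate block 3 of the 12 passed, beside 15.6% of all tested, Ube2f among them (adjusted p = 0.0686). At an unadjusted p under 0.05, 4 of the 12 were higher (33.3% against 9.26% of all tested) and 0 lower. The 337 tested members in no family held 30 of the 38 calls, 2 higher and 28 lower (8.9%, against 6.19% of all tested). The interferon zeta cluster made 15 of these 30 calls. With the replicate block 65 of the 337 passed, beside 15.6% of all tested. None of 168 olfactory and related receptor members and none of 10 protease inhibitor members passed the low-value filter, and 7 of 196 rodent multicopy reproductive members did. At an unadjusted p under 0.05, 81 of the 838 members were higher (9.67% against 9.26% of all tested) and 77 lower (9.19% against 9.16%).

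Grouped by how the genes of a list lie in the RefSeq table, 474 tested members name genes on several chromosomes, of which 5 passed as higher (1.05%, against 2.59% of all tested) and 7 as lower (1.48%, against 3.61%). Of 204 whose genes lie within 1 Mb of each other without overlap, 0 passed as higher and 19 (9.31%) as lower, 15 of the 19 being the interferon zeta cluster. Of 74 with overlapping genes, 1 (1.35%) was higher and 4 (5.41%) were lower, and of 81 further apart on 1 chromosome, 0 were higher and 2 (2.47%) lower.

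A gene listed with others was sometimes also measured alone. For 184 genes with tested probe sets of both kinds, the median log2 fold changes had the same sign in 140, with a Pearson r of 0.28 and a Spearman rho of 0.52 across genes, which share arrays and are not independent replicates. With the 75th percentile filter the Pearson r was 0.58. Of the 38 calls, 21 in 6 lists have a gene with a tested probe set of its own, and 1 of the 21 was called the same way there. The interferon zeta list holds 15 of the 21, all set beside the same single-gene Ifnz probe set, so they are not separate comparisons. By list, 1 of the 6, that of Tmem189, was called the same way. Of the 184 genes, 7 were called on a probe set of their own, where 6.19% of all tested probe sets passed. Of these 7, 6 were not called where listed with others. Scn9a, a sodium channel of sensory and sympathetic neurons, had a median of -0.49 alone (2 probe sets, of which the one at -0.60 passed) and -0.16 with its neighbours in the channel cluster. H2bc4, a histone, had -0.37 alone and -0.029 with other histones, and Dscaml1, a neuronal adhesion molecule, -0.36 and -0.0072. P3h3, a collagen-modifying enzyme, had -0.45 and -0.097. Josd1, a deubiquitinase, had 0.28 and 0.20, and Ube2l3, a ubiquitin-conjugating enzyme, had medians of 0.11 and 0.11 over 3 single-gene and 2 shared probe sets, where the single-gene probe set that passed was at 0.25 (SE 0.057, limma adjusted p = 0.0721). These differences were not tested.

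The calls differed in how much they rested on single arrays. With 1 array left out at a time, between 2 (without control replicate 2, both of them Gm5424 and Ass1) and 32 (without knockdown replicate 2) of the 38 still passed, and 14, 5, 28 and 5 did without control replicate 1, control replicate 3, knockdown replicate 1 and knockdown replicate 3. Of the 19 lists, 1 kept all its calls whichever array was left out. Around the threshold, the last member inside it was Rnaset2a with Rnaset2b at an adjusted p of 0.0995 and the first outside was the second probe set of that pair at 0.1004.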

How the data were processed

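The deposited values were log2 expression summaries per probe set for 6 Affymetrix Mouse Gene 1.0 ST arrays, hybridised with 200 ng of RNA each. The authors applied RMA background correction, quantile normalization and summarisation with oligo, removed consistently low genes and tested with limma, and neither versions nor the annotation build are given in the sources used here. Forced to a common distribution by quantile normalization, the arrays cannot show a change in total RNA, and RMA compresses differences near background. All value columns belonged to samples of the design.

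Symbols came from the platform annotation, and positions and sequences from RefSeq GRCm38.p6. Probe sets with at least 1 symbol above the array-wide median on at least 3 of 6 arrays (13384) were fitted with limma 3.58.1 in R 4.3.3 (lmFit, eBayes, two-sided), with Benjamini-Hochberg adjustment over all 13384 and a threshold of 10% FDR. Probe sets without a symbol were left out because array control probe sets are among them. The procedure was run on simulated data with independent noise on each array. The simulation left out the correlation between same-numbered arrays described below, so it cannot show how that correlation affects the calls. Families were assigned by 17 ordered symbol patterns. Depth is not defined for arrays, and the number of arrays limits the precision.

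The named probe sets were Pax6, the 12 largest rises and falls past the threshold without overlap, and from each family or kind up to 3 that passed or the 1 with the lowest p. Other named probe sets were chosen after their values were seen, as was the sequence motif. The members and lists were chosen with earlier results of these data known.

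Control and knockdown arrays share replicate numbers in the labels. Deviations from group means correlated within each number, at 0.564, 0.369 and 0.223, and each exceeds 0.1, so same-numbered arrays were regarded as pairs. The reported values come from the fit without the pairing, fixed as the main one. The value with the replicate number as a block stands beside many of the results it changes, but not beside the counts by position. Control replicate 3 with knockdown replicate 2 also reached 0.139. The pairing comes from the data, not from a stated batch. Alternatives were other low-value filters, all deposited rows, array centring, a second quantile normalization, array weights, an intensity trend, the replicate block and each array left out.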

Additional observations from a re-analysis of the deposited data

How the results depend on the processing

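The number of members past 10% FDR depended on the filter and the variance model. Against 38 members (6 higher, 32 lower), 16 passed without a low-value filter (0 higher, 16 lower), 28 with a 25th percentile filter (0 higher) and 55 with a 75th percentile filter (37 higher, 18 lower), which is 9.11% of members against 15.9% of all tested. With all deposited rows 21 passed (0 higher, 21 lower), with array centring 32 (1 higher), with a second quantile normalization 63 (18 higher, 45 lower), with array weights 223 (147 higher, 76 lower), or 26.6% against 37.7%, and with an intensity trend 99 (56 higher), or 11.8% against 8.74%, the reverse order of the 4.53% against 6.19% reported. The replicate block called 96 (33 higher, 63 lower). All 38 members passed under the second normalization, the array weights, the trend and the block. With 1 array left out the count ran from 2 to 42 (0 to 12 higher, 2 to 31 lower). Without both arrays of number 1, 2 passed (0 higher, 2 lower), without both of number 2, 2 (0 higher, 2 lower), and without both of number 3, 0 (0 higher, 0 lower). With 1 probe set per symbol list 16 passed (3 higher, 13 lower) and with identical rows counted once 32. The last 5 of these settings were chosen after seeing the data. Pax6 had log2 fold changes from -0.42 to -0.32 with 1 array left out and -0.42, -0.31 and -0.42 without both arrays of numbers 1, 2 and 3, and it missed the threshold in the last 3 and without control replicate 1, 2 or 3 or knockdown replicate 3. The correlation between probe sets of the same gene was 0.58 with the 75th percentile filter. The probe set 10462193 (Ndufb4b and Ndufb4), which did not pass, turned to 0.0029 with array weights and ranged from -0.11 to 0.0038 with 1 array left out. The causes were not tested, and the number of arrays limits the precision.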
